A study of Caenorhabditis elegans with 15 samples.

Results

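The PAR polarity genes par-1 to par-6, the kinase gene pkc-3 and the myosin gene nmy-2 were followed through RNA immunoprecipitations of the RNA-binding protein GLD-1. Members were the probe sets to which the array annotation gives the symbol of any of these 8 genes. The 8 genes, of 17118 on the array, had 19 probe sets, of 22548 tested, with 2 or 3 for each gene, and none carried a second symbol. By symbol and locus they were par-1 (H39E23.1), par-2 (F58B6.3), par-3 (F54E7.3), par-4 (Y59A8B.14), par-5 (M117.2), par-6 (T26E3.3), pkc-3 (F09E5.1) and nmy-2 (F20G4.3).

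RNA from whole young adult Caenorhabditis elegans was measured on 15 Affymetrix arrays in 5 groups of 3. The tagged strain had a gld-1(q485) background, which lacks functional endogenous GLD-1, and the integrated transgene ozIs2 [gld-1::gfp::flag]. Its GLD-1 was therefore the GFP and FLAG fusion. Set 1 compared anti-FLAG IPs of this strain with its anti-MYC IPs, an antibody for which the transgene names no tag. Set 2 compared anti-FLAG IPs of the tagged strain with those of wild-type N2, which has neither transgene nor gld-1(q485). For the input group, total RNA of tagged worms was hybridised without any IP. The sets were read from the form of the sample titles, and the set of the inputs is not given. The labels do not say whether replicates were separate cultures, so p-values measure only the spread between these samples. Since RNA came from whole worms, fewer cells of a type and less RNA per cell cannot be told apart.

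The PAR proteins divide the cortex of the one-cell embryo into domains. PAR-3, PAR-6 and the atypical protein kinase C PKC-3 form the anterior complex, while the kinase PAR-1 and the RING finger protein PAR-2 hold the posterior. PAR-4, the LKB1 kinase, and PAR-5, a 14-3-3 protein, are found throughout the cell, and NMY-2, a non-muscle myosin II heavy chain, drives the cortical flow that carries anterior PARs forward. Their mRNAs are made by the mother, and GLD-1, a STAR-family protein of meiotic germ cells, represses translation of many maternal mRNAs.

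Transcripts of nmy-2, pkc-3 and par-4 were higher in the tagged FLAG IP than in its control in both sets, and that of par-1 in set 2. The largest changes were 18.3-fold for nmy-2 and 10.9-fold for pkc-3, both in set 2. No call was made for par-2, par-3, par-5 or par-6 in either set, although all of these were bright in input. In set 1, 3 of 19 probe sets were called higher at adjusted p under 0.05 (limma fit of the 12 IP arrays, Benjamini-Hochberg adjustment over all probe sets), where 2.41% of all probe sets were. In set 2 it was 5 of 19, against 5.47%. Of the 15 member probe sets with a mean input signal of log2 5 or more, 3 and 5 were called, against 6.27% and 13.9% of all 8566 probe sets as bright in input. All 3 tagged arrays lay above all 3 controls for 4 of these 15 in set 1 and 9 in set 2, against 15.2% and 37%. The 9 include par-6 175652_at, whose 12 IP values all lay within 0.1 of the lowest value of their array. The median change of the 15 was 0.47 in set 1 and 0.53 in set 2 on the log2 scale, beside 0.19 and 0.19 over all 8566. The 3 probe sets called in set 1, 1 each of 3 of the 8 genes, were called in set 2 too, and 2.33% of all probe sets, 6.11% of those bright in input and 2.36% of genes were called in both. In this limma fit 0 of the 19 were called lower, against 0.0577% and 0.173% of all probe sets, and 1 and 2 were lower at unadjusted p under 0.05 in sets 1 and 2. These were par-6 175652_at in set 1, and par-2 172125_x_at and par-4 175844_at in set 2, each at -0.04. All 12 IP values of each lay within 0.1 of the lowest value of their array, where a decrease could not be measured.

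**Figure D1:**
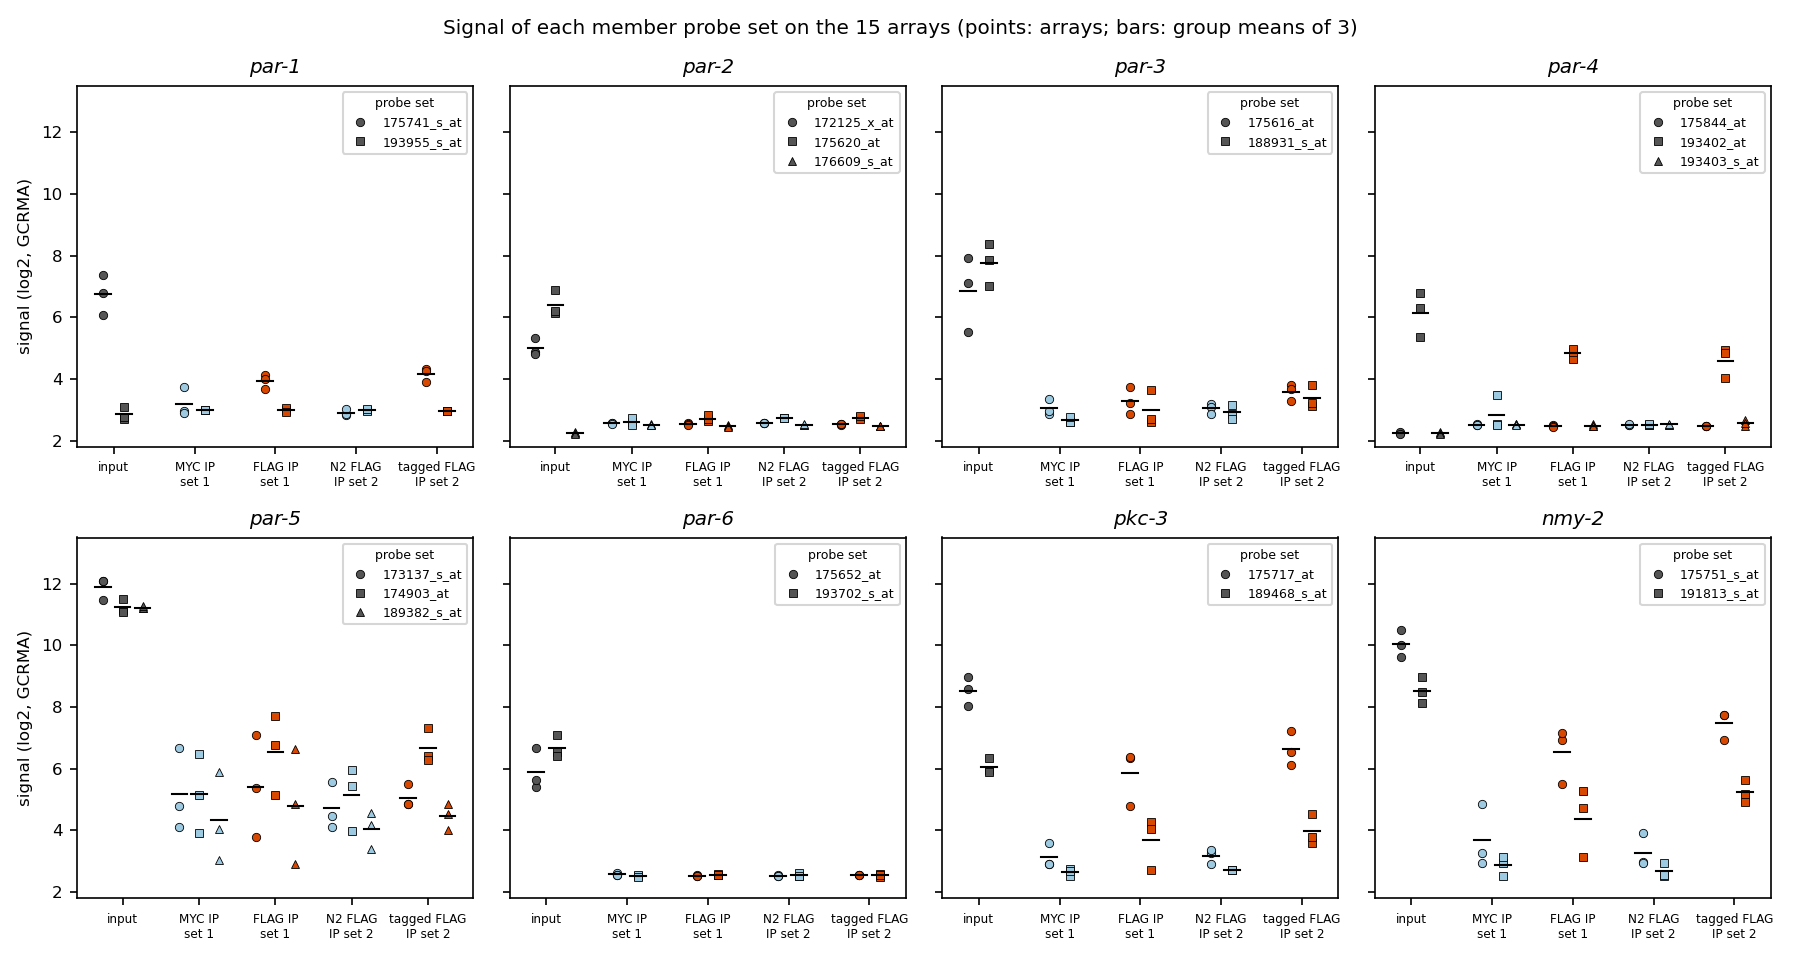
Signal of every member probe set (vertical axes, log2 GCRMA values) on the 3 arrays of each group (horizontal axes). Points are arrays, short bars are group means, and marker shapes tell probe sets of a gene apart; for nmy-2, pkc-3 and par-4 a probe set in the tagged IPs stands clear of both controls, while par-2 and par-6 stay near the lowest value of the IP arrays.

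As a check of the labels, gld-1 itself, which the transgene also encodes, was read by 174247_at and was 44.7-fold higher in the FLAG IP of set 1 and 46.8-fold higher in set 2 (limma, adjusted p = 0.00231 and 0.000945). After cyclic loess its log2 differences were 2.66 and 1.69, the second not called (adjusted p = 0.0677), and with the 6 arrays of set 1 alone the first was not (0.151). The other gld-1 probe set, 193805_at, read 3.40 ± 0.418 (SD, n = 3) in input and was called in neither set (0.35 and 0.51, adjusted p = 0.322 and 0.144). On IP arrays 194 to 2170 probe sets reached log2 5, against 7632 to 9352 on input arrays, and each IP array had a lowest value of its own, between 2.46 and 2.53. The median of 111 ribosomal protein probe sets, abundant transcripts read in every IP, ran from 5.54 to 9.67 on the IP arrays and from 12.8 to 13.1 in input. Between tagged IP and control its group mean differed by 0.04 in set 1 and 0.18 in set 2. FLAG replicate 1 of set 1 was the dimmest of its group. Markers of muscle, intestine, sperm and cuticle were all read in input, except the sperm gene spe-9. Of their 20 measured genes, 0 were called in either set (limma, with 1 and 0 at unadjusted p under 0.05). Of 6 germline markers, 4 and 5 were higher. Over all genes 2.44% and 5.56% were called higher, and a difference between tissues was not tested. The germline marker glh-1, with an input mean of 11.4, was called in neither set (0.43 and 0.83, limma, adjusted p = 0.763 and 0.4997). Summed over the 5 muscle markers, log2 levels were 21.7 to 29.6 in the MYC and 22.2 to 33.2 in the FLAG IP of set 1, and 20.5 to 24.8 in the N2 and 24.8 to 28.0 in the tagged IP of set 2. The muscle sums of set 2 did not overlap, and their part in the results was not tested. Over the 5 sperm markers the sums were 22.01 to 26.64 in the N2 and 20.25 to 23.73 in the tagged IP, which overlapped.

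Of the anterior complex, pkc-3 was called in both sets and par-3 and par-6 in neither. The kinase gene pkc-3 is read by 175717_at, whose input values were 8.57, 8.03 and 8.98. In set 1 it stood at 2.92, 2.91 and 3.61 in the MYC IPs and at 4.80, 6.37 and 6.39 in the FLAG IPs. In set 2 it stood at 3.27, 2.90 and 3.38 in the N2 IPs and at 7.22, 6.54 and 6.14 in the tagged IPs. All tagged arrays lay above all control arrays in both sets, and the 2 control groups overlapped each other. The differences were 2.70 ± 0.451 (SE, n = 3 a group) or 6.52-fold in set 1 (limma, adjusted p = 0.0167) and 3.45 ± 0.451 or 10.9-fold in set 2 (adjusted p = 0.00276). MYC replicates 1 and 2 and N2 replicate 2 all lay the same 0.3897 above the lowest value of their array. These controls may be at the floor of the probe set, so the folds may not be measured ratios. The change was positive but smaller after cyclic loess, a scaling that pulls arrays to a common intensity curve, at 1.19 and 1.42.

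A second pkc-3 probe set, 189468_s_at, was dimmer. Its mean input signal was 6.07 ± 0.243 (SD, n = 3). In set 1 it read 2.65 ± 0.112 in the MYC and 3.68 ± 0.836 in the FLAG IPs, a difference that missed the threshold (limma, 1.03, adjusted p = 0.301). In set 2 the N2 arrays lay at 2.72 to 2.73 and the tagged arrays at 3.58 to 4.53, a difference of 1.24 that also missed it (adjusted p = 0.115). Without FLAG replicate 1, the set 1 difference of 189468_s_at was 1.51 and was called (adjusted p = 0.00535).

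The PDZ scaffold gene par-3 was bright in input and near the bottom of the scale in every IP. Probe set 188931_s_at had input values of 7.84, 7.03 and 8.37. It read 2.61, 2.61 and 2.75 in the MYC IPs and 2.60, 2.70 and 3.63 in the FLAG IPs of set 1. In set 2 it read 3.17, 2.88 and 2.69 in the N2 IPs and 3.81, 3.11 and 3.20 in the tagged IPs. The groups overlapped in both sets. The differences were 0.32 (95% interval -0.32 to 0.97) and 0.46 (-0.18 to 1.11), so the interval reached at most 1.96-fold in set 1 and 2.16-fold in set 2 on this compressed scale (limma, adjusted p = 0.48 and 0.253).

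Probe set 175616_at of par-3 had a mean input of 6.85 ± 1.21 and changes of 0.21 (95% interval -0.32 to 0.75, adjusted p = 0.581) and 0.53 (-0.0029 to 1.07, adjusted p = 0.144) in the limma fit. In set 2 its tagged arrays, at 3.27 to 3.81, lay just above the N2 arrays, at 2.86 to 3.18. The set 1 change turned negative after quantile normalization (-0.17) and cyclic loess (-0.17), and that of set 2 after quantile normalization (-0.02). With the replicate number as a block, the set 2 change was called higher (0.53, limma, adjusted p = 0.03255). As the settings differ, no direction can be given for par-3.

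The gene of its partner par-6, an adaptor with a CRIB and a PDZ domain, gave no signal in the IPs. Its input means were 6.68 ± 0.366 for 193702_s_at and 5.90 ± 0.67 for 175652_at. On the 12 IP arrays 193702_s_at ran from 2.48 to 2.62 and 175652_at from 2.51 to 2.61, and 8 and 12 of these values lay within 0.1 of the lowest value of their array. All 4 changes were between -0.04 and 0.04. At that floor an increase too small to clear the background would not be seen, and a decrease could not be measured. Under 1 other setting 175652_at passed the threshold in set 2 (limma, adjusted p = 0.0328). Its changes in set 2 reached at most 0.06 over the settings, so this call reports no clear gain of transcript. The difference in change between pkc-3 and its partners was not tested.

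**Figure D2:**
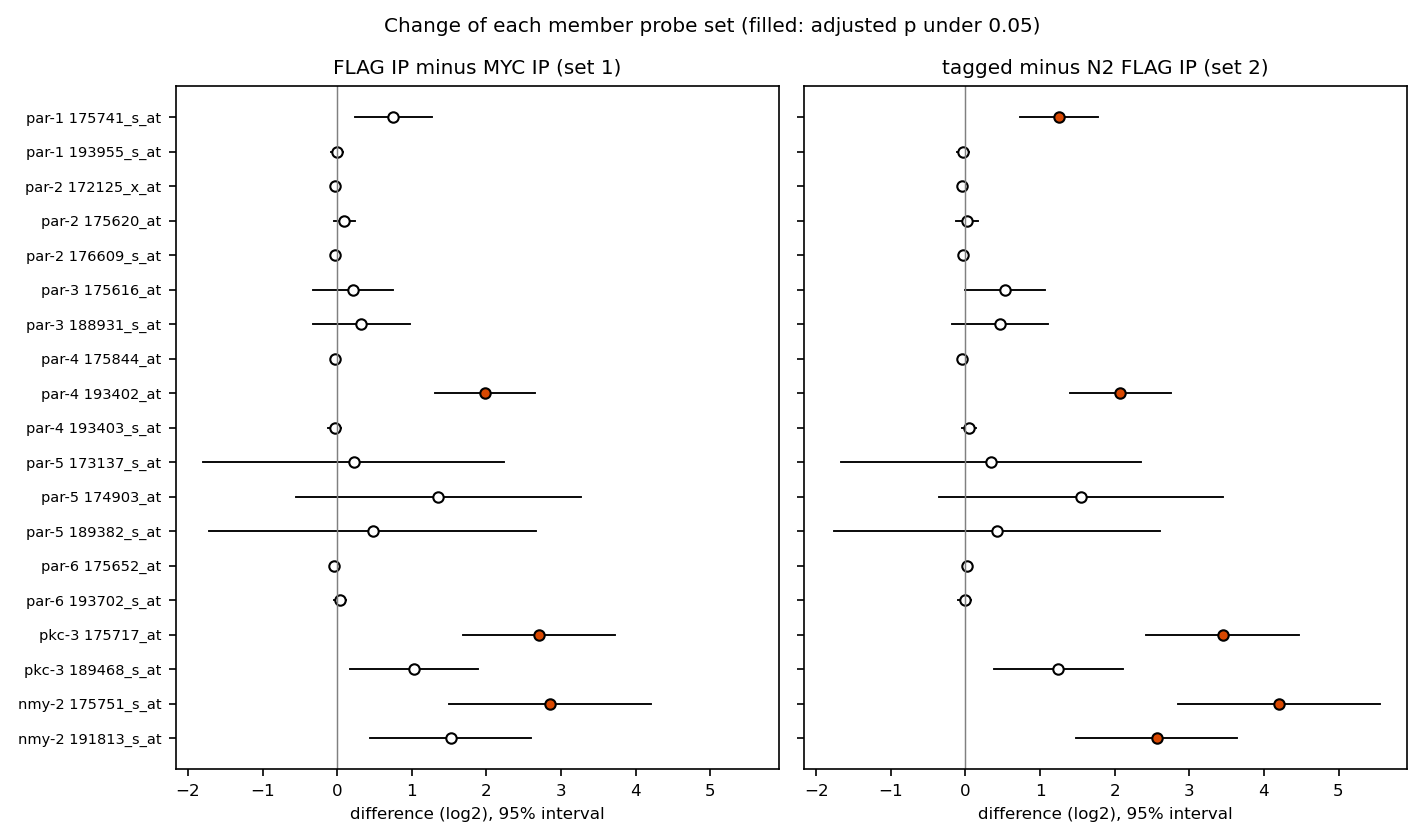
Difference between tagged FLAG IP and control (horizontal axes, log2) for each member probe set, in set 1 on the left and set 2 on the right. Circles are estimates, lines are 95% intervals, and filled circles passed the threshold: 3 in set 1 and 5 in set 2, of nmy-2, pkc-3, par-4 and par-1.

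Of the posterior genes, par-1 changed in set 2 and par-2 did not pass the test. The kinase gene par-1 is read by 175741_s_at, with input values of 6.80, 6.08 and 7.37. In set 2 the N2 IPs read 2.84, 2.86 and 3.02 and the tagged IPs 4.34, 3.91 and 4.25, with no overlap. That is a difference of 1.25 ± 0.228 or 2.39-fold (limma, adjusted p = 0.0127). In set 1 the MYC IPs read 2.95, 2.88 and 3.75 and the FLAG IPs 3.69, 4.13 and 4.01, and the groups overlapped through MYC replicate 3. The difference of 0.75 ± 0.228 missed the threshold (adjusted p = 0.188), and without MYC replicate 3 it was 1.03 and passed it (adjusted p = 0.018).

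The set 2 call of par-1 ended without N2 replicate 1 or 2 or tagged replicate 1 (adjusted p = 0.0509, 0.0533 and 0.0632). It also ended after quantile normalization (0.56, adjusted p = 0.401) and cyclic loess (0.45, adjusted p = 0.54). The other par-1 probe set, 193955_s_at, read 2.85 ± 0.2 in input and 2.92 to 3.07 on all 12 IP arrays, so it reported no par-1 signal to compare.

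The RING finger gene par-2 had input values of 6.14, 6.20 and 6.90 on 175620_at and a mean of 5.01 ± 0.286 on 172125_x_at. Probe set 175620_at read 2.52 to 2.75 in the MYC IPs and 2.62 to 2.83 in the FLAG IPs of set 1. In set 2 it read 2.73 to 2.74 in N2 and 2.69 to 2.79 in tagged worms. These ranges overlapped within each set, and the changes were 0.10 (95% interval -0.05 to 0.24) and 0.02 (-0.13 to 0.16; limma, adjusted p = 0.356 and 0.875). All 12 IP values of 175620_at lay within 0.38 of the lowest value of their array. So close to the floor, these intervals do not bound a change of the transcript. All 12 IP values of 172125_x_at lay within 0.1 of the lowest value of their array. The third par-2 probe set, 176609_s_at, lay there on the inputs as well, and so carried no information on the transcript.

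Of the genes of PARs found throughout the cell, par-4 was called in both sets and par-5 in neither. The LKB1 kinase gene par-4 is read by 193402_at, with input values of 6.29, 5.37 and 6.79. In set 1 the MYC IPs read 2.53, 2.52 and 3.48 and the FLAG IPs 4.65, 4.87 and 4.96. In set 2 the N2 IPs read 2.51, 2.51 and 2.53, which are the lowest values of those arrays, and the tagged IPs 4.93, 4.84 and 4.02. The groups did not overlap in either set.

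The par-4 differences were 1.98 ± 0.296 or 3.95-fold in set 1 (limma, adjusted p = 0.0102) and 2.08 ± 0.296 in set 2 (adjusted p = 0.00403). Because the N2 arrays were at their lowest value, the set 2 estimate of 4.22-fold is not a measured ratio and may be too low. Its confidence interval in the limma fit ran from 2.65-fold to 6.72-fold. In set 1, 2 of the 3 MYC arrays were within 0.1 of theirs, so the 3.95-fold is not a measured ratio on those arrays either. After quantile normalization the par-4 differences were 1.56 and 1.47 and after cyclic loess 1.21 and 1.11, with adjusted p from 0.0552 to 0.0652 over these 4 fits. The other par-4 probe sets, 175844_at and 193403_s_at, lay within 0.1 of the lowest value on all 3 input arrays and were uninformative.

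The 14-3-3 gene par-5 was the brightest member in input on each of its 3 probe sets, with means of 11.2 to 11.9. Every IP value of 173137_s_at, controls included, lay at least 1.265 above the lowest value of its array. On 189382_s_at, FLAG replicate 1 of set 1 lay only 0.389 above that of its array. Mouse brain RNA had been added to IP samples, and its part in these signals was not tested. On 173137_s_at the MYC IPs read 4.11, 4.78 and 6.68 and the FLAG IPs of set 1 read 3.78, 5.37 and 7.08. The N2 IPs read 5.58, 4.47 and 4.11 and the tagged IPs of set 2 read 5.49, 4.84 and 4.85. Tagged and control arrays overlapped, and both spanned a wide range. Differences were 0.22 (95% interval -1.79 to 2.23) and 0.34 (-1.67 to 2.36; limma, adjusted p = 0.888 and 0.81).

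Within an IP group, the arrays with more par-5 signal were mostly those with more ribosomal protein signal. On 174903_at and 189382_s_at the 3 arrays ranked as the ribosomal protein median did in all 4 IP groups, and on 173137_s_at in 3 of 4. The same ranking held in 4 of 4 groups for par-3 on 175616_at and for nmy-2 on 175751_s_at, and in 2 of 4 for pkc-3 on 175717_at. The share of all probe sets that ranked this way was not counted, so the ranking is not shown to be particular to these genes. Probe set 174903_at gave the highest par-5 changes, 1.35 and 1.55 (limma, adjusted p = 0.333 and 0.202), with tagged arrays above N2 arrays in set 2 at 6.30 to 7.33 against 3.98 to 5.97.

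No direction can be given for par-5, because all 3 probe sets turned negative after quantile normalization and cyclic loess. On 173137_s_at these values were -1.42 and -1.55 in set 1 and -1.73 and -2.08 in set 2, of which the set 1 value after cyclic loess was not called (adjusted p = 0.0733) and the other 3 were called lower (adjusted p = 0.00274 to 0.012). On 174903_at the set 2 value after cyclic loess was called lower as well (-1.57, adjusted p = 0.0205). With the replicate number as a block, 174903_at was instead called higher in set 2. The part of background RNA in the par-5 signal was not tested beyond these values.

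**Figure D3:**
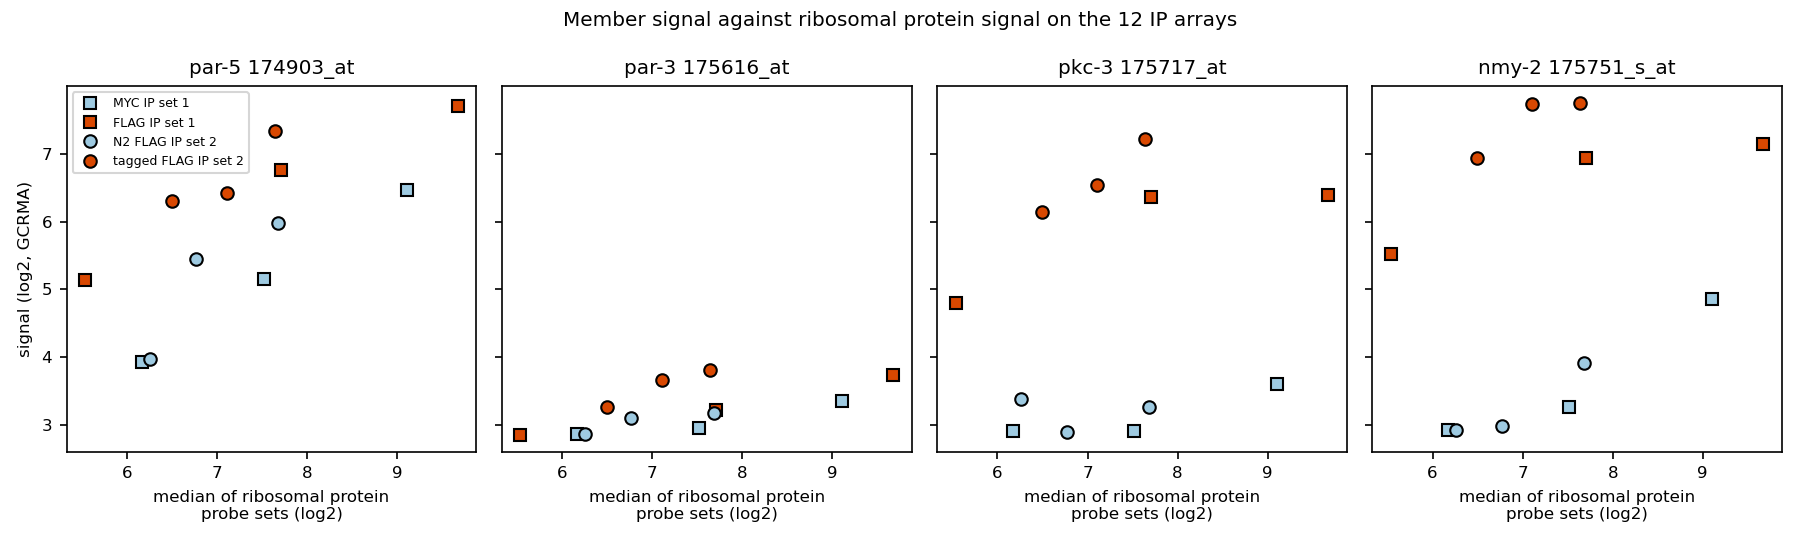
Signal of par-5, par-3, pkc-3 and nmy-2 (vertical axes, log2) on each of the 12 IP arrays against the median of 111 ribosomal protein probe sets on that array (horizontal axes, log2). Squares are set 1 and circles set 2, orange is tagged FLAG IP and blue is control, and each gene is shown by its probe set of highest mean signal; par-5 and par-3 climb with the ribosomal median in both kinds of IP, par-5 on this probe set with orange above blue at like medians, and for pkc-3 and nmy-2 every orange point lies above every blue one.

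The myosin gene nmy-2 had the largest changes of the members in this fit, though not in set 1 after cyclic loess, and its difference from pkc-3 was not tested. Input values of 175751_s_at were 10.00, 9.62 and 10.51. In set 1 the MYC IPs read 2.93, 3.27 and 4.86 and the FLAG IPs 5.52, 6.94 and 7.15. In set 2 the N2 IPs read 3.92, 2.99 and 2.93 and the tagged IPs 7.75, 7.74 and 6.94. Tagged and control arrays did not overlap in either set, and the tagged groups of the 2 sets overlapped each other, as did the control groups.

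For nmy-2, the differences were 2.85 ± 0.597 or 7.19-fold (limma, adjusted p = 0.0453) and 4.20 ± 0.597 or 18.3-fold (adjusted p = 0.00397). MYC replicate 1 and N2 replicate 3 lay the same 0.4044 above the lowest value of their array. These controls may be at the floor of the probe set, so these folds too may not be measured ratios. The second probe set, 191813_s_at, had an input mean of 8.53 ± 0.422 and did not overlap between tagged and control arrays in either set. It gave 1.52 ± 0.474 in set 1, which missed the threshold (adjusted p = 0.203), and 2.56 ± 0.474 or 5.9-fold in set 2 (adjusted p = 0.0136), where 2 of the 3 N2 arrays were within 0.1 of their lowest value and limit that fold. Both probe sets carry the array maker's suffix for sequence shared between transcripts. After quantile normalization and cyclic loess the changes of 175751_s_at were 1.59 and 0.99 in set 1, not called (adjusted p = 0.1385 and 0.0849), and 2.45 and 1.64 in set 2, both called.

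The set 1 calls ended when most single arrays of that set were left out. Those of nmy-2, pkc-3 and par-4 each ended when MYC replicate 1 or 2 or FLAG replicate 2 or 3 was left out, with adjusted p of 0.187 to 0.199 for nmy-2, 0.0805 to 0.0852 for pkc-3 and 0.0532 to 0.0568 for par-4, and with differences of at least 2.47, 2.44 and 1.82. The 3 calls also ended when only the 6 arrays of set 1 were fitted (adjusted p = 0.428, 0.277 and 0.198), a fit that leaves the differences themselves as they were. After centring on ribosomal protein genes they ended too (0.397, 0.58 and 1), with differences of 2.81, 2.66 and 1.94. Without FLAG replicate 1, 5 member probe sets were called in set 1. In set 2 the calls of 175751_s_at, 175717_at and 193402_at held without any single array (adjusted p at most 0.0237, 0.0163 and 0.0228). After centring on ribosomal protein genes that of 175751_s_at held (0.014) while those of 175717_at (0.105), 193402_at (0.999), 175741_s_at (0.999) and 191813_s_at (0.638) ended. The call of 191813_s_at also ended without N2 replicate 1 or 2 or tagged replicate 1 or 2 (0.05003 to 0.0668). No member differed between the sets in the limma test of the difference itself, whose lowest adjusted p among members was 0.997. That test called 0 of 22548 probe sets, with 355 at unadjusted p under 0.05, 1 of them a member, 175652_at of par-6, whose changes were -0.04 and 0.03.

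The called members were also set against input. The input mean exceeded the tagged IP mean of set 2 by 1.56 for par-4 (193402_at), 1.90 for pkc-3 (175717_at), 2.57 for nmy-2 (175751_s_at) and 2.58 for par-1 (175741_s_at). For par-5 the gap was 4.57 to 6.82 over its probe sets, and for the ribosomal protein median 5.90. For gld-1 on 174247_at the tagged IP stood above input, with a gap of -0.35. In the N2 controls the gaps were 3.63, 5.35, 6.76 and 3.84 for the same 4 members. These are values without a test, since IP and input arrays differ in the amount of worm RNA, and a gap cannot exceed the distance from input to the lowest value of the array, which limits par-2, par-4 and par-6 most.

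**Figure D4:**
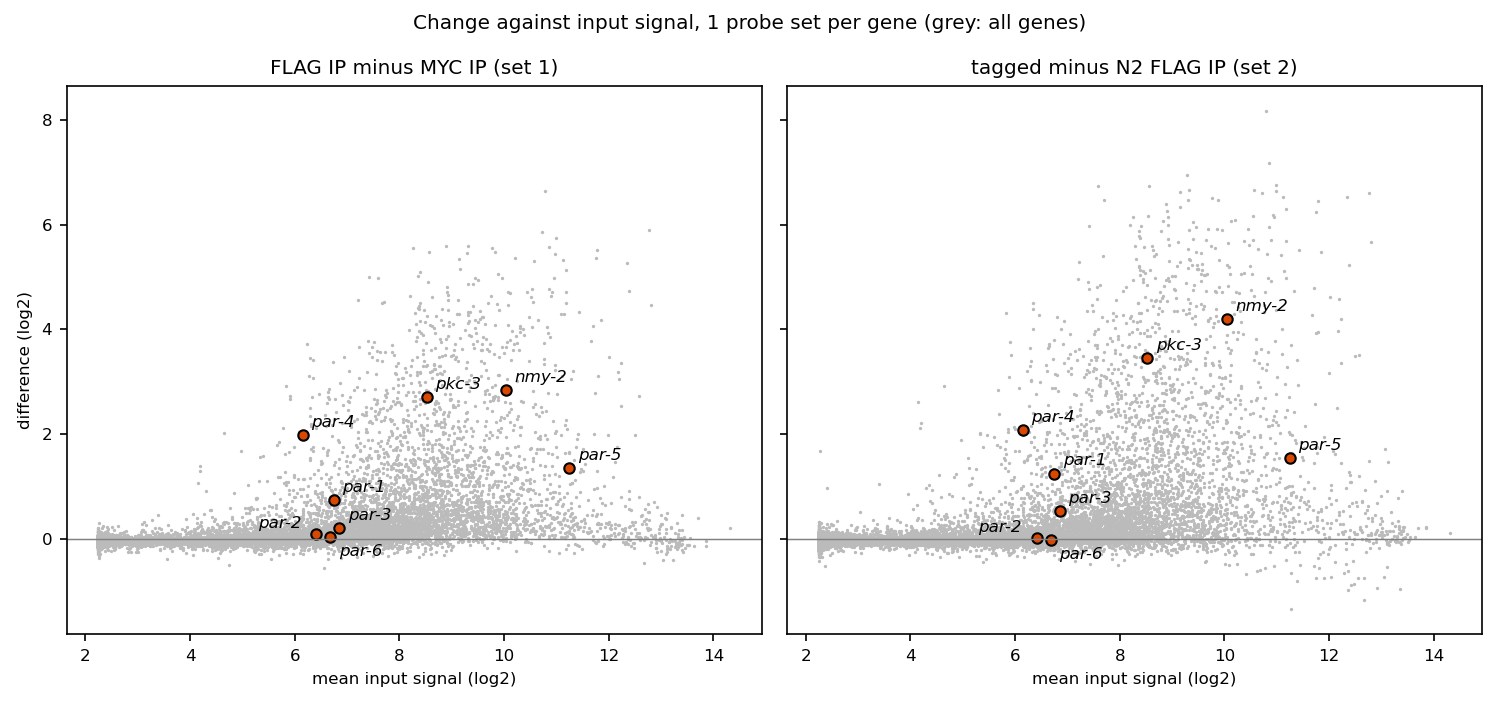
Difference between tagged FLAG IP and control (vertical axes, log2) against mean input signal (horizontal axes, log2), with the probe set of highest mean signal for each of 17118 genes in grey and the 8 members in orange. Set 1 is on the left and set 2 on the right; par-5 is the brightest member in input, and nmy-2 and pkc-3 have the largest changes.

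The profile of nmy-2 over the 12 IP arrays was most like those of gfat-2 (Pearson r = 0.996), klp-19 (0.995) and sqv-4 (0.994), among 1537 probe sets that reached log2 5 on at least 3 IP arrays and carry a single symbol. That of pkc-3 was most like those of exos-3 (0.997), srdf-3 (0.997) and F55G1.6 (0.996). Such likeness was common: the median r of all searched probe sets was 0.945 with nmy-2 and 0.95 with pkc-3, and the arrays share the contrast between tagged and control IPs.

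Other genes of the polarity system were taken as lists, 1 probe set a gene, where 2.44% of 17118 genes were called higher in set 1 and 5.56% in set 2. Among all 8566 probe sets with a mean input signal of log2 5 or more, 6.27% and 13.9% were, with median changes of 0.19 and 0.19. The lists were not matched for input signal. Of 8 measured direct partners and regulators of the PARs, 0 were higher in set 1 (limma; 3 at unadjusted p under 0.05) and 2 in set 2, with median changes of 0.23 and 0.37 (all genes: -0.03 and -0.03). The called genes were ftt-2, the other 14-3-3 gene of the worm, at 3.28 (adjusted p = 0.00949), and cgef-1, an exchange factor gene for CDC-42, at 1.05 (adjusted p = 0.025). Both were positive in set 1 (2.28, adjusted p = 0.0914, and 0.95, adjusted p = 0.071). After cyclic loess the ftt-2 changes were -0.08 and 0.03, and the suffix of its probe set marks possible cross-hybridisation. The cgef-1 call ended without any array of set 2 other than N2 replicate 2.

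Of 13 measured genes of the cortical actomyosin network, 0 were higher in set 1 (limma; 3 at unadjusted p under 0.05) and 2 in set 2, with medians of 0.26 and 0.27. They were ect-2, at 2.06 (adjusted p = 0.0112), and the anillin gene ani-2 at 1.74 (adjusted p = 0.0453). Other probe sets of these genes were not called in set 2 (limma). They gave 0.80 and 0.27 for ect-2 (adjusted p = 0.139 and 0.194) and 0.54 for ani-2 (adjusted p = 0.09996). As for ftt-2, the suffix of the called ect-2 probe set marks possible cross-hybridisation. The ani-2 call ended when any array of set 2 was left out (adjusted p = 0.0847 to 0.181), and that of ect-2 without tagged replicate 1 (0.0555). None of the set 2 calls of ftt-2, cgef-1, ect-2 and ani-2 held after quantile normalization (0.111 to 0.56). The myosin phosphatase subunit gene mel-11 was called in both sets on a probe set other than the one that represented it, 175594_at, at 2.15 (adjusted p = 0.00606) and 2.64 (adjusted p = 0.00116). The other mel-11 probe sets were called in neither set. Both mel-11 calls ended after centring on ribosomal protein genes (2.11 and 2.46, adjusted p = 1 and 0.607), and that of set 1 with its 6 arrays alone (0.206). The paralog of nmy-2, nmy-1, gave differences of -0.03 in set 1 and -0.16 in set 2, neither past the threshold (limma, adjusted p = 0.918 and 0.543).

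Among these 4 lists, chosen with earlier results of these data known, genes for cytoplasmic fate and spindle position had the highest counts. Of 10 measured, 4 were higher in set 1 and 5 in set 2, with medians of 2.30 and 3.22. Of the 8 members it was 3 and 4, and the difference was not tested. Higher in both were goa-1, a G protein alpha subunit gene of spindle positioning (4.56 and 5.62), the zinc finger genes mex-5 (4.23 and 5.61) and mex-6 (3.05 and 3.90), and the kinase gene mbk-2 (4.10 and 5.03; limma, adjusted p at most 0.027 for all 8 values). The Aurora A gene air-1 was called in set 2 (4.92, adjusted p = 0.0162) and not in set 1 (3.86, adjusted p = 0.0866). The set 1 call of mex-6 ended without MYC replicate 1 or 2 or FLAG replicate 2 or 3 (adjusted p = 0.118 to 0.13), and after cyclic loess those of mex-5, mbk-2 and mex-6 in set 1 (0.0931, 0.0559 and 0.487) and mex-6 in set 2 (0.468) ended. That of air-1 ended without N2 replicate 2 or 3 or tagged replicate 1 or 2 (0.0562 to 0.0776).

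Genes of epithelial polarity, where the same PAR proteins act in somatic tissues, gave 2 of 9 higher in set 1 and 4 of 9 in set 2, with medians of 0.38 and 0.88. The scaffold genes let-413 (2.14 and 2.30) and dlg-1 (2.93 and 2.16) were called in both sets (limma, adjusted p from 0.00766 to 0.0436). The catenin genes hmp-1 (1.41, adjusted p = 0.0372) and hmp-2 (0.88, adjusted p = 0.0488) were called in set 2. With any single array of set 2 left out, 1 or 2 of the 4 remained called, and with FLAG replicate 1 left out 5 genes were called in set 1. Without any other single array of set 1, 0 or 1 were called there. After centring on ribosomal protein genes 0 genes of this list were called in either set (let-413 at 2.10 and 2.12, dlg-1 at 2.89 and 1.98; adjusted p = 0.362 to 1), and the dlg-1 call of set 2 ended after cyclic loess (0.76, adjusted p = 0.213). In the limma fit reported here 0 genes of these 4 lists were called lower in either set, where 0.0701% and 0.169% of all genes were.

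**Figure D5:**
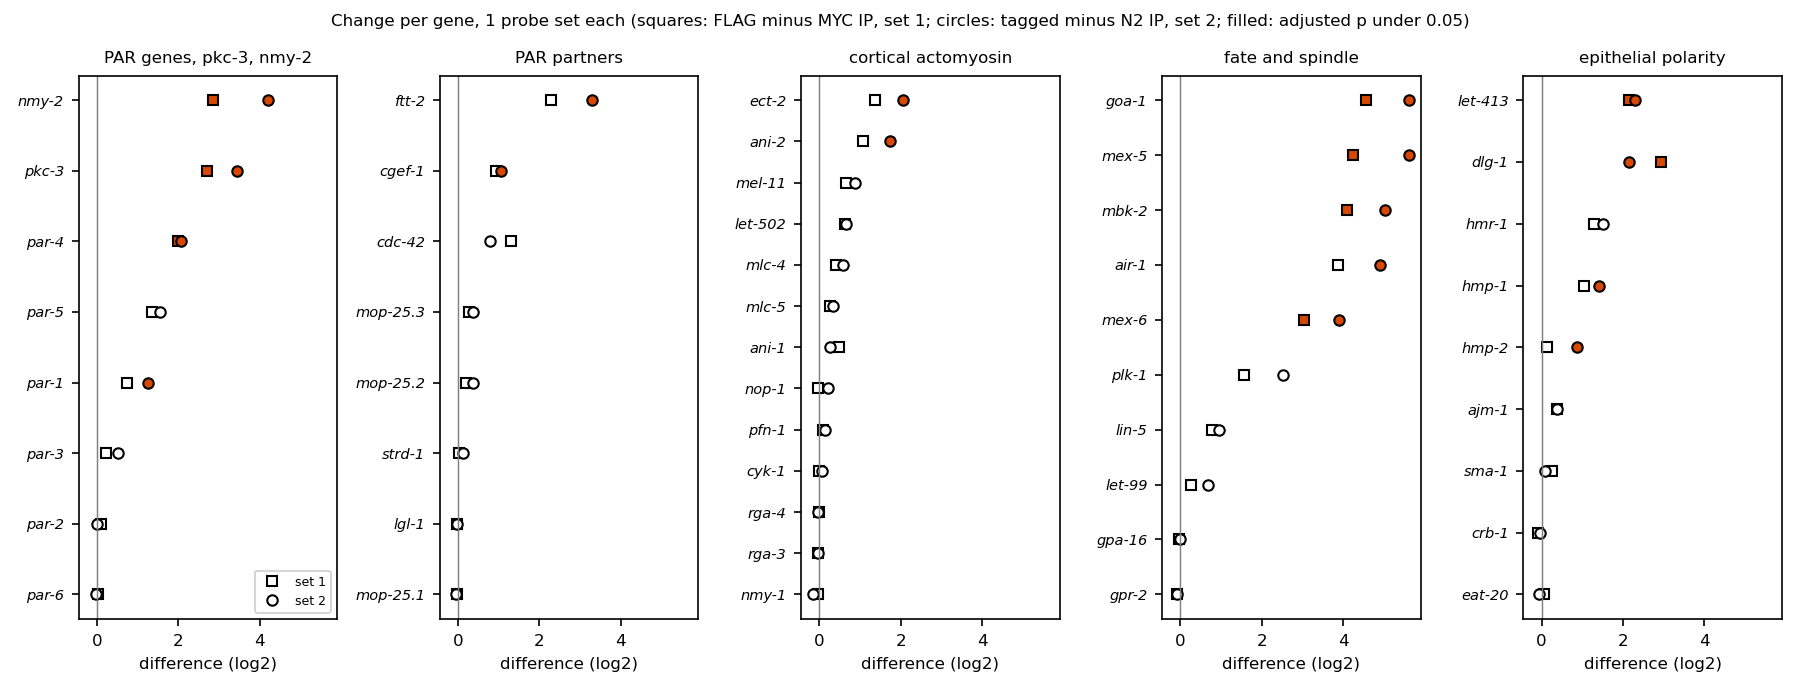
Difference between tagged FLAG IP and control (horizontal axes, log2) for the members and 4 lists of polarity genes, 1 probe set a gene. Squares are set 1, circles are set 2, and filled symbols passed the threshold; the list of fate and spindle genes holds 5 genes filled in set 2, the partners and the actomyosin genes 2 each.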

How the data were processed

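The deposited values are log2 GCRMA summaries, 1 per probe set and array, and the authors' use of GCRMA is taken from the submitters' processing notes; its version is not given in the sources used here. Of 22625 rows, 77 array controls were left out, and 0 columns were without a sample. Symbols came from the platform annotation, and Entrez IDs matched all 8 genes to the RefSeq table of WBcel235, which gave locus names. Mouse brain RNA had been added to IP samples, per the labels' protocols. Groups and replicate numbers came from the sample titles. The 12 IP arrays entered 1 limma model (limma 3.58.1, R 4.3.3; group means, eBayes, two-sided tests; 8 residual and 0.849 prior degrees of freedom), with Benjamini-Hochberg adjustment over 22548 probe sets and calls under 0.05. Fold changes are 2 to the power of the log2 difference. For 3 arrays against 3, the smallest exact permutation p is 0.1. In lists, each gene stood with its brightest single-symbol probe set (mean of all arrays). Named genes were all members, gld-1, called list genes, the paralogs nmy-1 and ftt-2, and the 3 genes most like nmy-2 and like the other member with the largest mean change; mel-11 175594_at was named after its values were seen. Lists left out chin-1, gpr-1 and msp-10, which have no probe set of their own, and an item that is not reported here. Members, lists and tests were chosen with earlier results of these data known. Alternatives were a replicate block, a fit of 6 arrays alone, a brightness filter, quantile normalization, cyclic loess, centring on ribosomal protein genes and each array left out. The fit was tested on simulated data. The number of arrays limits the precision.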

Additional observations from a re-analysis of the deposited data

How the results depend on the processing

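The set 2 call of nmy-2 (175751_s_at) held under all 6 other settings and without any single array, and no called member changed sign in any of these fits. The number of probe sets called higher in set 1 was 543. It was 0 with only the 6 arrays of the comparison, 933 under the brightness filter (log2 5 on at least 3 IP arrays), 178 centred on ribosomal protein genes, and 196 to 2090 with an array left out. In set 2 it was 1233, against 2601 with the 6 arrays alone (and 6460 lower, against 39), 367 centred on ribosomal protein genes and 669 to 1011 with an array left out. Centring on ribosomal protein genes moved the median change of all probe sets in set 2 from -0.03 to -0.21, and that of the difference between sets from 0.01 to 0.15. Calls were 97.7% and 96.9% higher in sets 1 and 2, but quantile normalization gave 66.2% and 62.4% and cyclic loess 57.3% and 62.5%. Members called higher in set 1 numbered 3, but 0 with the 6 arrays alone, 1 after quantile normalization, 1 after cyclic loess, 0 centred on ribosomal protein genes and 0 to 5 with an array left out. In set 2 they numbered 5, but 3 under the brightness filter, which removed par-1 and par-4, 3 after quantile normalization, 1 centred on ribosomal protein genes and 3 to 5 with an array left out. The test of the difference between sets called 0, but 2 after quantile normalization, 3 after cyclic loess and 0 to 4 with an array left out. The median input level of the members, 6.68, moved by less than its spread.

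Replicate numbers were not taken to pair arrays in the reported fit, and whether they do was not tested. Deviations of same-numbered arrays correlated at 0.515, 0.0449 and 0.702 in set 1 and at 0.0805, 0.002 and 0.239 in set 2. Of 12 arrays, 8 correlated best with their own number, among 3 numbers. With the replicate number as a block, 715 probe sets were higher in set 1 and 2626 in set 2, where 5529 were lower; 3 and 7 members were called higher and 0 and 3 lower, and the difference between sets called 0. Among the 7 were par-3 175616_at (0.53, adjusted p = 0.0326) and par-5 174903_at (1.55, adjusted p = 0.0387). The 3 called lower were par-2 172125_x_at and 176609_s_at and par-4 175844_at, each at -0.04. Each lay within 0.1 of the lowest value on all 12 IP arrays, so these calls report no loss of transcript.

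Signs that turned belonged to changes not called in the reported fit, and the cause was not tested. Changes that round to 0.00 were given no sign and are left out here. After quantile normalization these were par-3 175616_at (-0.17 and -0.0156 in sets 1 and 2), par-5 173137_s_at (-1.42 and -1.73), 174903_at (-0.48 and -0.99) and 189382_s_at (-0.84 and -1.26), par-2 175620_at in set 2 (-0.093), par-6 193702_s_at in set 2 (0.0111) and hmp-2 in set 1 (-0.30). After cyclic loess they were par-3 175616_at in set 1 (-0.17), par-5 173137_s_at (-1.55 and -2.08), 174903_at (-0.90 and -1.57) and 189382_s_at (-0.84 and -1.31), par-6 193702_s_at in set 2 (0.0212), ftt-2 in set 1 (-0.0751) and hmp-2 in set 1 (-0.15). Centred on ribosomal protein genes they were, in set 2, par-2 175620_at (-0.16), par-4 193403_s_at (-0.13) and par-6 175652_at (-0.15). With an array left out, set 1 changes ranged from -0.0189 to 0.42 for par-3 175616_at, -0.62 to 1.03 for par-5 173137_s_at, -0.45 to 1.42 for 189382_s_at, -0.18 to 0.11 for nmy-1 and -0.0413 to 0.36 for hmp-2, and set 2 changes from -0.0331 to 0.022 for par-6 193702_s_at.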
